A study of Homo sapiens with 7 samples.

Results

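The major histocompatibility complex (MHC) is the stretch of the short arm of chromosome 6 that holds the human leukocyte antigen (HLA) genes. Its members here were the ChIP-seq peaks of 5 targets whose summits lay in chr6:28500001-33500000 of the human genome build hg19, 5 Mb in all. Of 132893 peaks in the 5 lists, 823 met this rule. RNA polymerase II (Pol II) had 150 of them, SPT5 327, TRIM28 262, OGA 20 and O-GlcNAc 64. The region was divided at fixed positions into class III, chr6:31500001-32300000, with 274 peaks, class II, chr6:32300001-33500000, with 219, and class I, chr6:28500001-31500000, with 330. The rest of chromosome 6 held 5615 peaks.

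Class I molecules present peptides from inside the cell to CD8+ T cells. HLA-DR, HLA-DQ and HLA-DP of the class II region present peptides taken up from outside to CD4+ T cells and are a hallmark of B cells and other antigen-presenting cells. The class III region between them holds closely packed genes of other kinds, among them complement components and tumour necrosis factor. In the gene order of RefSeq's GRCh38 annotation, the stretch from MCCD1 to NOTCH4 (class III) listed 88 genes, 59 of them protein-coding and 7 pseudogenes. The stretch from BTNL2 to HLA-DPA3 (class II) listed 39, with 19 protein-coding genes and 12 pseudogenes, and that from HLA-F to MICB (class I) listed 139, with 49 protein-coding genes and 59 pseudogenes. Those stretches are not the same as the fixed borders above. No peak was assigned to a gene, because the annotation at hand is of another build than the peaks, so gene names stand here as background.

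The cells were BJAB, an established human B-cell line from a Burkitt's lymphoma, with no treatment named in the labels. Pol II, which transcribes protein-coding genes, was precipitated with the antibody 8WG16. SPT5, a subunit of the elongation factor DSIF that travels with Pol II, and TRIM28 (also called KAP1), a corepressor known for recruitment by zinc-finger proteins and also for a role at paused Pol II, were precipitated with antibodies named after them. OGA, the hydrolase that takes the sugar O-GlcNAc off proteins, was precipitated with an antibody labelled NCOAT, another name of OGA. O-GlcNAc itself, a single sugar that the enzyme OGT attaches to serines and threonines of nuclear proteins, Pol II among them, was precipitated with RL2. Cells were fixed with 1% formaldehyde for 5 min, 10 µg of antibody was used, and libraries were made from 25 ng of DNA. Each target had 1 library, the labels give the passage as multiple, and the mouse and rabbit IgG libraries were not analysed here. The depth of the libraries is unknown. No comparison below has a replicate, and no p-value is given. All intervals are 95% intervals that cover counting error alone, treat neighbouring peaks as independent and are not adjusted for the number of comparisons. The cell type could not be checked against its marker genes, since peaks were not assigned to genes.

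Peaks of all 5 targets were denser in the MHC than on the rest of chromosome 6. The density of the rest was counted over 134 Mb, without the MHC and without 18 stretches of over 1 Mb that held no peak of any list. Pol II had 30 peaks per Mb in the MHC and 6.36 on the rest of chromosome 6, a ratio of 4.71 (exact conditional interval 3.94 to 5.61). SPT5 had 65.4 per Mb in the MHC and 16.9 on the rest, a ratio of 3.88 (3.44 to 4.35). TRIM28 had 52.4 in the MHC and 15.5 on the rest, the lowest ratio of the 5 at 3.39 (2.97 to 3.85). OGA, the shortest list, had 4 in the MHC and 0.828 on the rest, a ratio of 4.83 (2.84 to 7.82). O-GlcNAc had 12.8 in the MHC and 2.35 on the rest, a ratio of 5.45 (4.10 to 7.15). The MHC thus held 15.0% of the chromosome's Pol II peaks, 12.6% of its SPT5 peaks, 11.2% of its TRIM28 peaks, 15.3% of its OGA peaks and 16.9% of its O-GlcNAc peaks. With chromosomes 1 to 22 and X without the MHC in place of the rest of chromosome 6, the O-GlcNAc ratio was 3.50, a change of more than 1.5 times, while the other 4 ratios lay between 2.94 and 3.95.

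Windows of 5 Mb along chromosomes 1 to 22 and X, 596 in all, show how rare such counts were within each library. Windows that touched the MHC were left out, and with them the peaks on both sides of it, so its nearest flanks were not compared. None of the 33 remaining windows of chromosome 6 held as many peaks of any list as the MHC. The median window held 23 Pol II peaks, 66 SPT5 peaks, 62 TRIM28 peaks, 3 OGA peaks and 10 O-GlcNAc peaks. The MHC's 150 Pol II peaks were matched or passed by 6 windows, 4 of them on chromosome 19. Its 327 SPT5 peaks were matched or passed by 14 windows, its 262 TRIM28 peaks by 7, its 20 OGA peaks by 9, and its 64 O-GlcNAc peaks by 14, of which 9 were on chromosome 19. Windows this dense therefore existed elsewhere, on chromosomes other than 6.

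**Figure D1:**
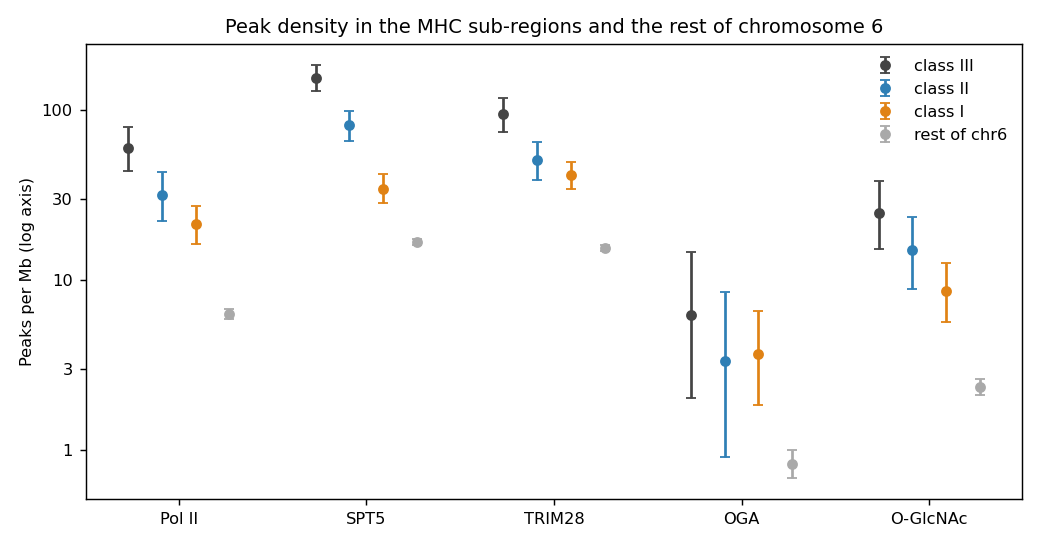
Peaks per Mb (vertical log axis) of the 5 targets in class III, class II, class I and the rest of chromosome 6, with bars for exact 95% Poisson intervals of 1 library each. Every sub-region lies above the rest of the chromosome in each list, and for Pol II, SPT5, TRIM28 and O-GlcNAc the order is class III, class II, class I, from 156 to 34.7 peaks per Mb for SPT5.

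Within the MHC, class III had the highest density for each of the 5 targets. SPT5 had 156 peaks per Mb in class III (Poisson interval 130 to 186), 81.7 in class II (66.3 to 99.5) and 34.7 in class I (28.3 to 42.0). The SPT5 ratio of class III to class I was 4.51 (3.45 to 5.90) and that of class II to class I was 2.36 (1.77 to 3.13). Pol II had 60 peaks per Mb in class III, 31.7 in class II and 21.3 in class I, ratios to class I of 2.81 (1.89 to 4.15) and 1.48 (0.967 to 2.25). TRIM28 had 95 in class III, 50.8 in class II and 41.7 in class I, ratios of 2.28 (1.69 to 3.06) and 1.22 (0.883 to 1.67). O-GlcNAc had 25 in class III, 15 in class II and 8.67 in class I, ratios of 2.88 (1.53 to 5.37) and 1.73 (0.894 to 3.28). For OGA, with 5, 4 and 11 peaks, neither ratio could be told from 1 (1.70, 0.464 to 5.32, and 0.909, 0.211 to 3.07). Class II stood above class I with an interval clear of 1 in the SPT5 list alone. The SPT5 ratio of class III to class I depended on where the line between them was drawn, and was 2.81 with both inner borders 100 kb higher.

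The number of SPT5 and TRIM28 peaks for each Pol II peak was not the same in the sub-regions. There were 2.60 SPT5 peaks for each Pol II peak in class III, 2.58 in class II and 1.63 in class I, against 2.65 on the rest of chromosome 6. TRIM28 had 1.58 peaks per Pol II peak in class III, 1.61 in class II and 1.95 in class I, against 2.43 on the rest. SPT5 peaks covered 13.8% of the bases of class III, 6.33% of class II and 2.93% of class I, against 1.10% of the rest of chromosome 6. These quotients are descriptions of 5 lists made from different antibodies, and no difference between them was tested.

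**Figure D2:**
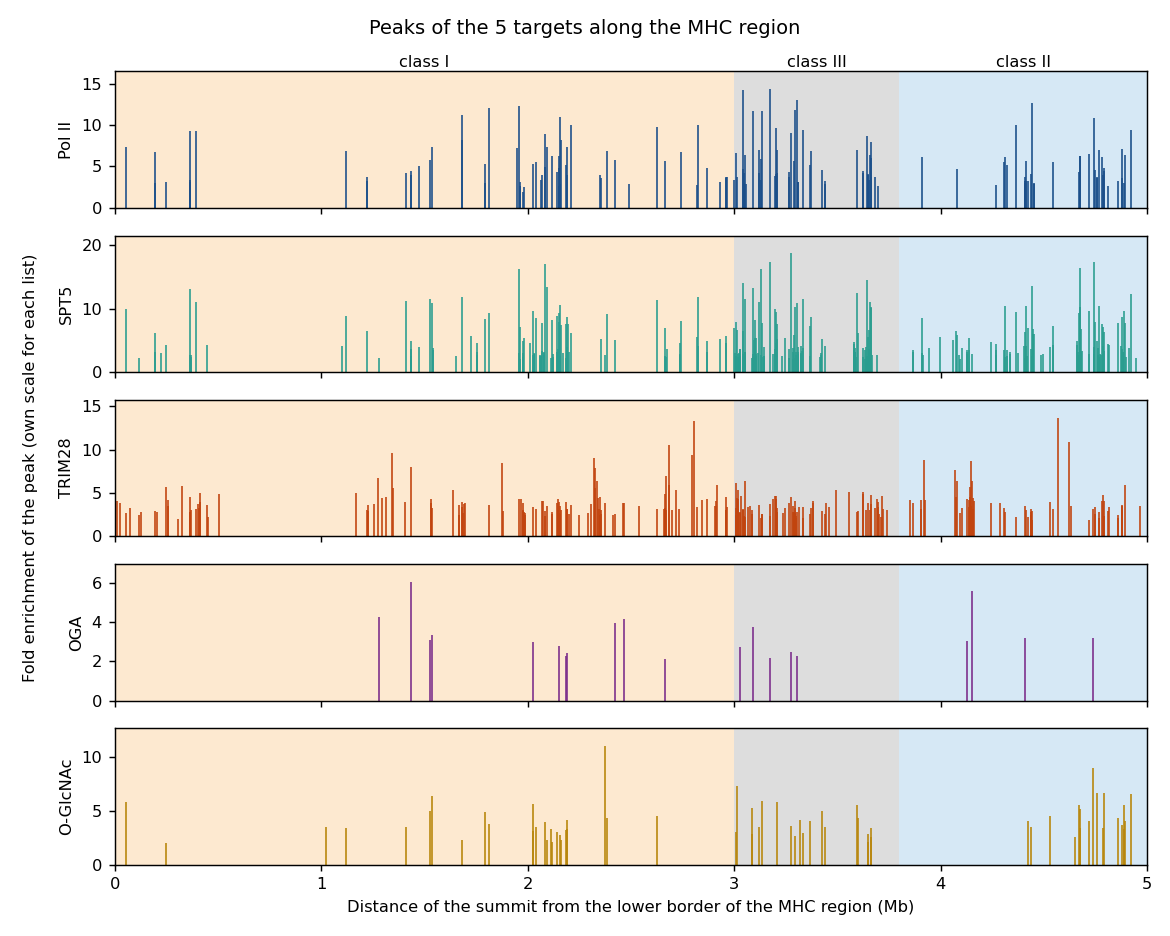
Every peak of the 5 lists in the MHC, drawn at the distance of its summit from the lower border in Mb (horizontal axis) with its fold enrichment as height (vertical axis, own scale for each list). Shading marks class I, class III and class II in their order along the chromosome; all 5 lists are empty for 517 kb inside class I, and the O-GlcNAc list is empty for 757 kb from the upper part of class III into class II.

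Along the region from its lower to its upper border the peaks came in blocks. In steps of 500 kb from the lower border, Pol II had 8, 0, 7, 14, 24 and 11 peaks in class I, and then 35, 14, 16 and 21 from the start of class III to the upper border. SPT5 had 12, 0, 9, 20, 45 and 18 and then 95, 37, 42 and 49. TRIM28 had 24, 1, 12, 22, 41 and 25 and then 57, 25, 31 and 24. OGA had 0, 0, 2, 2, 6 and 1 and then 5, 0, 3 and 1, and O-GlcNAc had 2, 0, 3, 5, 15 and 1 and then 14, 6, 2 and 16. The second step was all but empty: no peak of any list lay in chr6:29003347-29520459, 517 kb long, and the 1 TRIM28 peak of the step ended where that stretch began. The first step of class III held the most Pol II, SPT5 and TRIM28 peaks. In steps of 100 kb, the first of class III held the most SPT5 peaks (30) and the most TRIM28 peaks (19). The fullest Pol II bin, with 12 peaks, was the second last of class III. OGA (3 peaks) and O-GlcNAc (8 peaks) had their fullest bin in class I, at the same position, 30.6 to 30.7 Mb along the chromosome.

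Class II was not uniform. Its lower 0.5 Mb held 3 Pol II peaks beside 24 SPT5 peaks, 24 TRIM28 peaks, 2 OGA peaks and 0 O-GlcNAc peaks. The upper 0.7 Mb held 35 Pol II peaks, 74 SPT5 peaks, 37 TRIM28 peaks, 2 OGA peaks and 18 O-GlcNAc peaks. Per Mb this was 50 Pol II peaks in the upper part (34.8 to 69.5) and 6 in the lower (1.24 to 17.5), whereas TRIM28 had 52.9 (37.2 to 72.9) and 48 (30.8 to 71.4). The dividing position was chosen after the profile had been seen. How reads with several matches were handled is not known. The effect of similar and variable HLA genes on where peaks were called could not be checked, and its part in this contrast was not tested. The longest stretches without a peak also differed by target. They were chr6:28892115-29617599 (725 kb) for Pol II, chr6:28949215-29600958 (652 kb) for SPT5 and chr6:29003347-29670385 (667 kb) for TRIM28, all around the empty step of class I. Between neighbouring OGA peaks the longest was chr6:31802620-32627680 (825 kb), which took in much of class III and the start of class II. The stretch from the lower border to the first OGA peak was longer, at 1277 kb. O-GlcNAc lacked peaks over chr6:28749844-29520459 (771 kb) and over chr6:32163731-32920814 (757 kb).

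Overlap between the lists was counted peak by peak, as the share of a list's peaks that a peak of another list overlapped by at least 1 bp. In all 20 ordered pairs of lists the share was higher in the MHC than on the rest of chromosome 6, and in 8 of them the interval of the difference lay above 0. The direction held for this definition and not for every other: with summits within 250 bp in place of overlap, 7 of the 20 shares were lower in the MHC, and 1 was when the overlap had to span 50% of the shorter peak. The pairs share peaks and are not 20 independent results. Shares over chromosomes 1 to 22 and X are called genome-wide below.

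**Figure D3:**
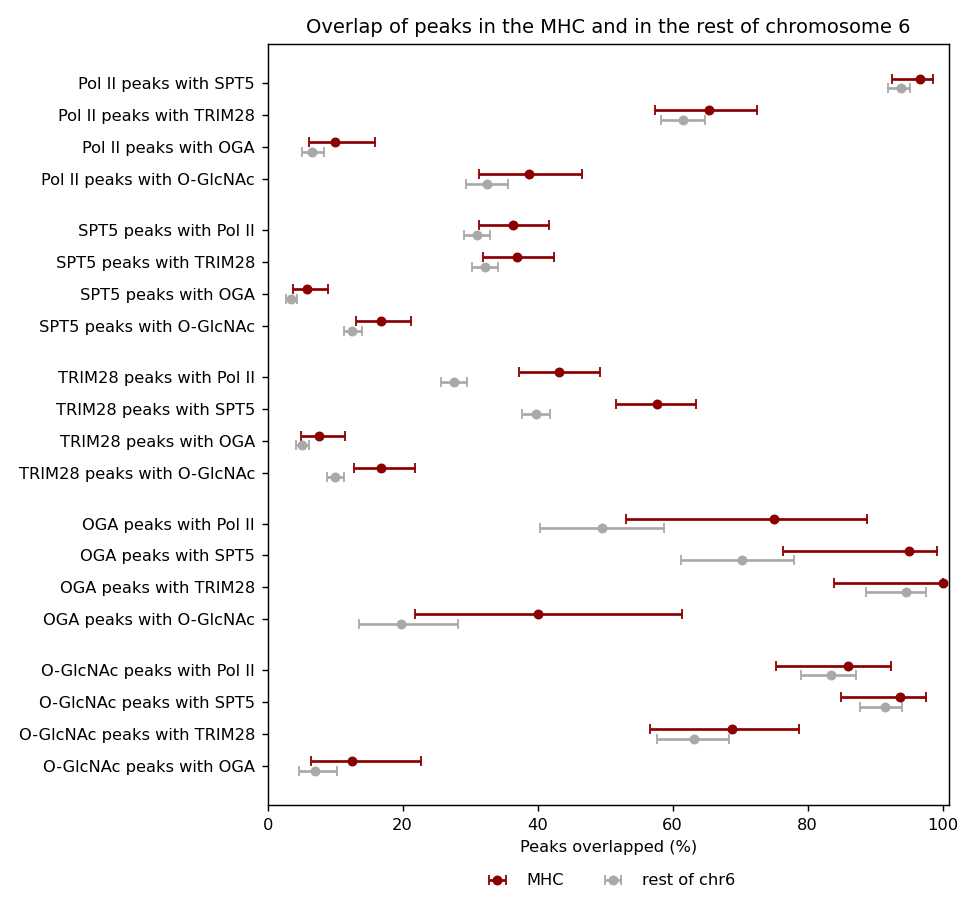
Share of each list's peaks overlapped by each other list (horizontal axis, %), in the MHC (upper, dark red) and on the rest of chromosome 6 (lower, grey), with 95% Wilson intervals. The widest gaps are in the OGA rows for Pol II, SPT5 and O-GlcNAc, where the intervals are wide. Next are the TRIM28 rows for SPT5 and Pol II, 57.6% against 39.8% and 43.1% against 27.6%.

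Nearly all Pol II peaks of the MHC had SPT5. SPT5 overlapped 145 of 150 (96.7%), against 93.8% on the rest of chromosome 6 and 95.5% genome-wide. TRIM28 overlapped 98 (65.3%), against 61.5% on the rest and 59.9% genome-wide. O-GlcNAc overlapped 58 (38.7%), against 32.5% on the rest and 40.2% genome-wide. OGA overlapped 15 (10%), against 6.57% on the rest and 6.03% genome-wide. No interval of these 4 differences from the rest lay clear of 0. At a −log10 q of at least 5, however, the difference was 16.0 points for TRIM28 (6.72 to 24.6) and 4.40 points for OGA (0.882 to 10.2). Pol II peaks with no other target were 2, both in class I, against 40 of 853 on the rest and 3.56% genome-wide. The interval of that difference from the rest covered 0 (−3.36 points, −5.25 to 0.256). Counting summits within 250 bp instead of overlaps left 6% of the Pol II peaks with OGA.

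Pol II peaks with TRIM28 made up 37 of 48 in class III (77.1%), 21 of 38 in class II (55.3%) and 40 of 64 in class I (62.5%). The difference of class III from class II was 21.8 points (1.86 to 40.1), and that of class III from class I was 14.6 points (−2.82 to 30.2), which covers 0. All 38 Pol II peaks of class II had SPT5. The fold enrichments in the authors' files were used only within a list. Pol II peaks had a median fold enrichment of 4.73 in the MHC (4.18 to 5.51) and 5.42 on the rest of chromosome 6 (5.11 to 5.77), a difference of −0.684 (−1.34 to 0.151). Against chromosomes 1 to 22 and X without the MHC it was −0.175. Peaks wider than 1 kb were 26 of 150 (17.3%) in the MHC, against 13.7% on the rest and 11.5% genome-wide, and they were 8 of 48 in class III, 10 of 38 in class II and 8 of 64 in class I.

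The highest Pol II peak of class III, chr6:31670649-31671406, had a fold enrichment of 14.4, above 98.6% of the list, and overlapped SPT5 (17.4), TRIM28 (3.73) and an OGA peak. Its summit lay 3 bp from the SPT5 summit. The highest of class II was chr6:32936879-32940853, 3975 bp wide with a fold enrichment of 12.7, and had SPT5 and TRIM28. The highest of class I was chr6:30456923-30457612, at 12.4, also with SPT5 and TRIM28. The widest Pol II peak of the region, chr6:30580502-30585208, spanned 4707 bp in class I and had a fold enrichment of 8.95. It lay within the highest SPT5 peak of class I.

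SPT5 peaks were the most numerous, and 172 of them (52.6%, 47.2 to 57.9) overlapped no other list. Pol II overlapped 119 of 327 (36.4%), against 31.0% on the rest of chromosome 6 and 29.1% genome-wide, and TRIM28 overlapped 121 (37.0%), against 32.2% and 30.7%. Both differences from the rest covered 0, at 5.36 points (−0.0321 to 11.0) and 4.77 points (−0.644 to 10.5), but that for TRIM28 was 11.1 points (4.39 to 18.1) at a −log10 q of at least 5 and that for Pol II 5.62 points (0.235 to 11.3) with an overlap of 50%. O-GlcNAc overlapped 55 (16.8%), against 12.6% on the rest and 14.2% genome-wide, a difference of 4.26 points (0.332 to 8.89). OGA overlapped 19 (5.81%), against 3.45% on the rest and 3.2% genome-wide, a difference of 2.36 points (0.140 to 5.52). With summits within 250 bp in place of overlap, 3.36% of SPT5 peaks had OGA, and both of these last differences fell inside counting error, at 0.446 points for OGA and 2.54 points for O-GlcNAc.

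SPT5 peaks with no other target were 172 of 327 (52.6%), against 57.4% on the rest and 59% genome-wide. They were 72 of 125 in class III, 54 of 98 in class II and 46 of 104 in class I, and class III exceeded class I by 13.4 points (0.385 to 25.7). Correspondingly, Pol II overlapped 30.4% of SPT5 peaks in class III, 33.7% in class II and 46.2% in class I, and the difference of class III from class I was −15.8 points (−27.8 to −3.14). Lone SPT5 peaks of the MHC lay near Pol II all the same. Their median distance to the nearest Pol II summit was 4.23 kb (3.11 to 5.67) in the MHC and 12.8 kb (11.4 to 14.3) on the rest, where Pol II peaks are sparser. They were low, with a median fold enrichment of 2.80 (2.72 to 2.97), whereas those that Pol II overlapped had a median of 7.80 (7.10 to 8.73) in the MHC and 7.68 (7.35 to 8.02) on the rest.

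All SPT5 peaks of the MHC had a median fold enrichment of 3.54 (3.19 to 3.84), against 3.41 (3.35 to 3.47) on the rest. Medians were 3.11 in class III, 3.77 in class II and 4.04 in class I, and the interval of class III minus class I covered 0 (−1.84 to 0.0972). Wide SPT5 peaks were more frequent in the region: 92 of 327 (28.1%, 23.5 to 33.2) exceeded 1 kb, against 16.4% (15.0 to 18.0) on the rest and 16.3% genome-wide. The share was 28.8% in class III, 26.5% in class II and 28.8% in class I. The widest, chr6:31496585-31504063, spanned 7479 bp across the border of class I and class III with a fold enrichment of 6.93, and had Pol II. The highest SPT5 peak of class III was chr6:31774241-31775489, at 18.7, above 99.8% of the list. That of class II was chr6:33239169-33240872, at 17.4, and both had all 4 other targets. The highest of class I was chr6:30579961-30586415, 6455 bp wide and at 17.1, with Pol II, TRIM28 and O-GlcNAc.

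TRIM28 showed the clearest difference between the MHC and the rest of the chromosome. SPT5 overlapped 151 of 262 TRIM28 peaks (57.6%), against 39.8% on the rest and 43.7% genome-wide, a difference of 17.9 points (11.4 to 24.0). Pol II overlapped 113 (43.1%), against 27.6% on the rest and 28.6% genome-wide, a difference of 15.5 points (9.33 to 21.8). O-GlcNAc overlapped 44 (16.8%), against 9.98% on the rest and 13% genome-wide, a difference of 6.81 points (2.55 to 12.0). OGA overlapped 20 (7.63%), against 5.11% on the rest and 5.12% genome-wide, and that difference covered 0, but not at a −log10 q of at least 5 (3.82 points, 0.711 to 8.58). The first 3 differences kept an interval above 0 under all 3 other definitions of overlap and threshold, but with summits within 250 bp they were smaller, at 8.32 points for SPT5, where the share itself was 38.2%, 7.50 points for Pol II and 5.58 points for O-GlcNAc. Pol II and SPT5 peaks were also denser in the MHC, and SPT5 peaks wider, and the part of these in the result was not tested.

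**Figure D4:**
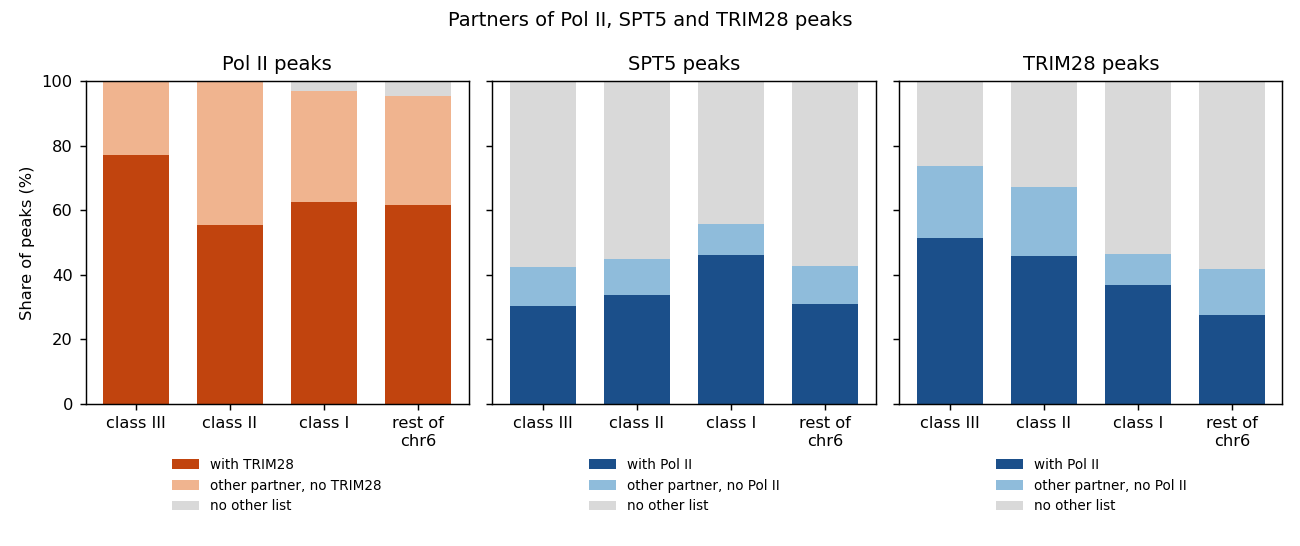
Share of Pol II, SPT5 and TRIM28 peaks (vertical axis, %) by the other targets that overlapped them, in class III, class II, class I and the rest of chromosome 6. TRIM28 peaks without any other target are 26.3% in class III, 32.8% in class II and 53.6% in class I, against 58.2% on the rest of the chromosome.

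The overlap of TRIM28 with SPT5 was higher in class III and class II than in class I. TRIM28 peaks with SPT5 were 54 of 76 in class III (71.1%), 41 of 61 in class II (67.2%) and 56 of 125 in class I (44.8%). Class III exceeded class I by 26.3 points (12.2 to 38.6) and class II exceeded it by 22.4 points (7.17 to 35.8). SPT5 peaks also covered 13.8% of the bases of class III, 6.33% of class II and 2.93% of class I. The part of this in the result was not tested, and no other definition of overlap was applied to the sub-regions. TRIM28 peaks with Pol II were 51.3% in class III, 45.9% in class II and 36.8% in class I, and here the difference of class III from class I was 14.5 points (0.451 to 28.0). TRIM28 peaks with no other target were 107 of 262 in the MHC (40.8%), against 58.2% on the rest and 54.4% genome-wide, a difference of −17.4 points (−23.5 to −10.9). They were 20 of 76 in class III, 20 of 61 in class II and 67 of 125 in class I. Lone TRIM28 peaks lay a median of 17.9 kb from a Pol II summit in the MHC (13.1 to 24.8) and 55.6 kb on the rest (50.0 to 64.2), where Pol II peaks are sparser. The median was 11.8 kb in class III, 41.5 kb in class II and 17.2 kb in class I.

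TRIM28 peaks of the MHC had a median fold enrichment of 3.42, against 3.66 on the rest, a difference of −0.239 (−0.430 to −0.0674). Against chromosomes 1 to 22 and X without the MHC it was −0.0807. The authors' −log10 p in place of fold enrichment gave a difference of 0.0172, in the other direction. Within the region, TRIM28 peaks with SPT5 had a median of 3.11 (2.99 to 3.30) and those without it 3.86 (3.54 to 4.13). On the rest of the chromosome the medians were 3.14 (3.08 to 3.20) with SPT5 and 4.18 (4.06 to 4.24) without. None of the 76 TRIM28 peaks of class III was in the highest decile of the whole list (Wilson upper bound 4.81%), against 5 of 61 in class II and 10 of 125 in class I, where a decile holds 10% by construction. The highest TRIM28 peak of class III, chr6:31550047-31550673, had a fold enrichment of 6.34 and overlapped Pol II and SPT5. By contrast, the highest of class II, chr6:33068828-33069323 at 13.7, and the highest of class I, chr6:31304567-31305044 at 13.3, had no other target. The widest, chr6:30523814-30525030 in class I, spanned 1217 bp and had all 4 others.

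OGA had 20 peaks in the MHC, and TRIM28 overlapped every one of them, against 94.6% on the rest of chromosome 6 and 90% genome-wide. SPT5 overlapped 19 (95%), against 70.3% and 71.9%, a difference from the rest of 24.7 points (4.58 to 34.7). Pol II overlapped 15 (75%), against 49.5% and 46.2%, a difference of 25.5 points (1.74 to 42.0). O-GlcNAc overlapped 8 (40%), against 19.8% and 24.1%, a difference of 20.2 points (0.221 to 42.4). These 3 intervals are wide. They stayed above 0 with an overlap of 50% of the shorter peak, and at a −log10 q of at least 5 the one for Pol II did (38.7 points, 9.04 to 59.5). With summits within 250 bp, 45% of OGA peaks had Pol II and 55% had SPT5, and the difference from the rest was 8.96 points for Pol II, 16.1 points for O-GlcNAc and −4.46 points for SPT5, all within counting error. The share with TRIM28 was then 75% and lay below that of the rest by 16.0 points (difference −16.0, −38.2 to −0.601), the other way round from the overlaps. No OGA peak of the MHC lacked all other targets, against 3 of 111 on the rest and 4.84% genome-wide.

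**Figure D5:**
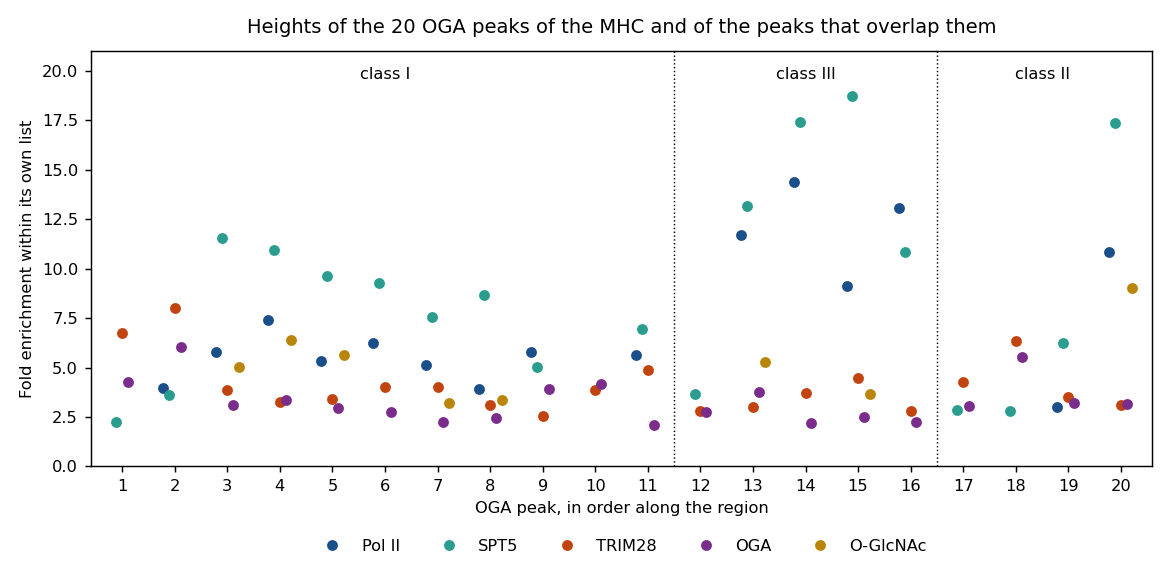
Fold enrichment (vertical axis) of the 20 OGA peaks of the MHC, in their order along the chromosome (horizontal axis), and of the overlapping peaks of Pol II, SPT5, TRIM28 and O-GlcNAc, each on the scale of its own list. OGA heights lie between 2.09 and 6.03; the 5 OGA peaks without a Pol II point include the second highest, in class II at 5.55.

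The OGA peaks fell into 4 combinations. Pol II, SPT5, TRIM28 and O-GlcNAc were all present at 8 (40%, against 18.0% on the rest and 20% genome-wide). Pol II, SPT5 and TRIM28 without O-GlcNAc were present at 7 (35%, against 29.7% on the rest). SPT5 and TRIM28 were present at 4 (20%, against 19.8% on the rest). TRIM28 alone was present at 1 (5%, against 26.1% on the rest), chr6:30965122-30965352 with a fold enrichment of 4.15. The 8 sites with all targets had OGA fold enrichments of 2.25 to 3.75. The 7 with Pol II, SPT5 and TRIM28 only had 2.09 to 6.03, and the 4 with SPT5 and TRIM28 only had 2.74 to 5.55. The 20 OGA peaks together had a median of 3.08 in the MHC (2.48 to 3.75) and 3.33 on the rest (3.21 to 3.62). The highest was chr6:29932665-29932933 in class I, at 6.03, whose summit lay 5 bp from that of a TRIM28 peak of 8.01, 52 bp from that of a Pol II peak of 3.96 and 76 bp from that of an SPT5 peak of 3.59. The next, chr6:32653469-32653700 in class II at 5.55, had TRIM28 (6.36) and a low SPT5 peak (2.78) and no Pol II. It lay in the lower part of class II that held few Pol II peaks, as did chr6:32627681-32627911 (3.05). The first OGA peak of the region, chr6:29777143-29777319 at 4.26, likewise had TRIM28 (6.73) and SPT5 (2.22) only, and the fourth peak of that kind was chr6:31528087-31528373 (2.74) in class III. The widest, chr6:30923316-30923748, spanned 433 bp at 3.93.

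OGA summits lay close to the TRIM28 summits of overlapping peaks and, by the median, to the O-GlcNAc summits. The median distance from an OGA summit to the nearest TRIM28 summit was 42 bp in the MHC (25 to 71) and 42 bp on the rest of chromosome 6 (37 to 53). To the nearest SPT5 summit it was 167 bp in the MHC (71 to 336) and 87 bp on the rest (65 to 128), and to the nearest Pol II summit 149 bp (81 to 303) and 171 bp (98 to 215). For the 8 OGA peaks of the MHC with O-GlcNAc, the median to the nearest O-GlcNAc summit was 35.5 bp (18 to 384). On the rest it was 52.5 bp (15 to 104). Neighbouring OGA peaks were a median of 103 kb apart, with 2 of the gaps within 10 kb.

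All 5 targets met at 8 sites. Those of class III were chr6:31587758-31589027, named here by the Pol II peak, where the Pol II fold enrichment was 11.7, that of SPT5 13.2, that of TRIM28 3.02, that of OGA 3.75 and that of O-GlcNAc 5.27, and chr6:31774297-31775079, with 9.12 for Pol II and the region's highest SPT5 peak. The site of class II was chr6:33239067-33240141, with 10.8 for Pol II, 17.4 for SPT5 and the highest O-GlcNAc peak of class II (9.05). Class I had 5 such sites, in close pairs except for chr6:30523736-30525520 (Pol II 5.31), which stood apart. The pairs were chr6:30028450-30029277 (5.81) with chr6:30034271-30035255 (7.41), and chr6:30684789-30685700 (5.12) with chr6:30688585-30689584 (3.91). Over the 8 sites, SPT5 fold enrichment was 7.57 to 18.7 and TRIM28 3.02 to 4.48. At the class II site the Pol II and SPT5 summits were 3 bp apart, while the TRIM28, OGA and O-GlcNAc summits lay 281 to 300 bp from the Pol II summit. When overlapping peaks of the 5 lists were merged, the MHC had 442 sites. Of these, 102 (23.1%, 19.4 to 27.2) held 3 or more targets, against 16.0% (14.8 to 17.2) on the rest of chromosome 6 and 16.4% genome-wide. The 8 sites with 5 targets were 1.81% (0.920 to 3.53) of the MHC's, against 0.617% (0.408 to 0.933) on the rest and 0.696% genome-wide. Peaks of all 5 lists were denser in the MHC, and SPT5 peaks wider. The part of these in the shares of merged sites was not tested.

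Most O-GlcNAc peaks of the MHC had Pol II, SPT5 and TRIM28 beside them. Of 64, SPT5 overlapped 60 (93.8%), against 91.4% on the rest and 88.2% genome-wide. Pol II overlapped 55 (85.9%), against 83.5% and 80.8%, TRIM28 overlapped 44 (68.8%), against 63.2% and 59.5%, and OGA overlapped 8 (12.5%), against 6.98% and 6.7%. All 4 intervals of the difference from the rest covered 0, and the largest difference was 5.58 points for TRIM28 (−7.61 to 16.98). O-GlcNAc peaks without any other target were 4, against 26 of 315 on the rest and 10.5% genome-wide. The 64 O-GlcNAc peaks together had a median fold enrichment of 3.76 in the MHC (3.46 to 4.34) and 3.82 on the rest (3.63 to 4.06). In class III the median was 3.60, in class II 4.22 and in class I 3.50, with overlapping intervals.

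The highest O-GlcNAc peak of the region lacked Pol II. It was chr6:30875603-30876200 in class I, with a fold enrichment of 11.0, above 99.2% of the list, and it overlapped SPT5 (2.71) and TRIM28 (3.79) alone. The highest of class III was chr6:31515075-31515437, at 7.35, with Pol II and SPT5. The widest, chr6:30293969-30295049 in class I, spanned 1081 bp at 4.90, with Pol II and SPT5. O-GlcNAc summits stood off from Pol II summits by a median of 192 bp in the MHC (150 to 234) and 156 bp on the rest (146 to 164). For SPT5 and Pol II summits the median distance from an SPT5 peak was 23 bp in both the MHC (15 to 31) and the rest (20 to 26).

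The borders themselves cut through sparse stretches. At the lower border, the first Pol II, SPT5 and O-GlcNAc peaks inside formed 1 site 55.0 to 55.1 kb in, with fold enrichments of 7.31, 10.0 and 5.86, and the last outside formed 1 site 132 to 133 kb out, with 6.06, 6.56 and 6.99. The first TRIM28 peak inside, at 4.13, lay 10.6 kb in, and the last outside, at 3.52, lay 132 kb out. The first OGA peak inside was 1277 kb from the border and the last outside, at 2.12, was 629 kb away. At the upper border, the last peaks inside lay 77.9 kb (Pol II, 9.46), 55.2 kb (SPT5, 2.25), 33.7 kb (TRIM28, 3.47), 260 kb (OGA, 3.16) and 77.7 kb (O-GlcNAc, 6.59) from it. Pol II, SPT5, TRIM28 and O-GlcNAc all had their first peak outside at 1 site 39.1 to 39.2 kb beyond it. The first OGA peak beyond it, chr6:33755857-33757527 at 257 kb, had a fold enrichment of 18.3, above every OGA peak of the MHC.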

How the data were processed

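Peaks of 5 ChIP-seq libraries of BJAB cells, 1 per target, were analysed in the narrowPeak files the authors deposited. Per the submitters' processing notes, reads were handled with bcl2fastq 2.17, Trimmomatic 0.30 and Bowtie2 2.1.0, and the build was hg19. Not given in the sources used here are the peak caller, its control and threshold, and the handling of reads with several matches. Deposited values are a fold enrichment, which is a ratio to a background not given, −log10 p and −log10 q values, and the position of the summit. The lowest −log10 q was 1.30 to 1.33 by list. Depth is unknown, so low peaks may have been missed to different degrees. The lists hold 0 peaks on unplaced, random or haplotype sequences.

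Groups were taken from the sample titles. Peaks belonged to the region by summit. The members, sub-regions and comparisons were chosen with earlier results of these data known. Densities were given exact Poisson intervals, ratios exact conditional binomial intervals, shares Wilson intervals, differences of shares Newcombe intervals, and medians order-statistic intervals, all at 95%. Summit distances were taken from an overlapped peak to the closest summit in the second list. Sites named are the highest peak of each list and sub-region, the widest peak of each list, the OGA peaks and the sites of all 5 targets. Also named are the fullest 100-kb bins, the longest empty stretches between peaks and the peaks next to the outer borders. Alternatives were a −log10 q of at least 5, merging within 500 bp, covered bases, other reference regions, shifted borders, summits within 250 bp, an overlap that covers 50% of the shorter peak, and −log10 p for height. The calculations were tested on simulated data. Code ran in Python 3.11.15 on pandas 2.3.3, numpy 2.4.6, matplotlib 3.10.9 and scipy 1.17.1.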

Additional observations from a re-analysis of the deposited data

How the results depend on the processing

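No paired analysis was possible because each target has 1 library. The 5 density ratios of the MHC to the rest of chromosome 6 stayed above 1 in all 25 alternatives (2.94 to 6.74), and 17 of the 25 values lay within the main interval. Against chromosomes 1 to 22 and X the ratio of Pol II was 3.82, that of SPT5 2.95, that of TRIM28 2.94 and that of O-GlcNAc 3.50. With the whole span of chromosome 6, which lengthens the divisor, they were 5.83 for Pol II, 4.80 for SPT5 and 4.19 for TRIM28. Covered bases gave 4.98 for SPT5. The ratio of class III to class I lay within the main interval in 26 of 30 alternatives. The others were SPT5 at 3.37 with peaks merged, 2.81 with inner borders 100 kb higher and 3.40 with the start of class I moved 1 Mb upward, and TRIM28 at 1.59 with inner borders 100 kb higher. For OGA it fell below 1 in some alternatives (lowest 0.469). The ratio of class II to class I lay within it in all 30 (0.606 to 2.53).

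Of 60 alternative shares in the MHC, 43 lay within the main interval. Requiring summits within 250 bp, a narrower criterion by construction, gave for Pol II peaks 73.3% with SPT5, 50% with TRIM28, 6% with OGA and 26.7% with O-GlcNAc. It gave for SPT5 peaks 30.6% with TRIM28 and 3.36% with OGA, and for TRIM28 peaks 29.0% with Pol II and 38.2% with SPT5. For OGA peaks it gave 45% with Pol II, 55% with SPT5 and 75% with TRIM28, and for O-GlcNAc peaks 62.5% with Pol II and 68.8% with SPT5. An overlap of 50% of the shorter peak gave 73.4% of O-GlcNAc peaks with Pol II. A −log10 q of at least 5 gave 48.2% of SPT5 peaks with Pol II, 23.0% of SPT5 peaks with O-GlcNAc and 56.1% of O-GlcNAc peaks with TRIM28.

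Of 60 alternative differences between the MHC and the rest, 41 kept their direction and their side of 0. At a −log10 q of at least 5, 4 more intervals lay above 0: Pol II by TRIM28 (16.0 points), Pol II by OGA (4.40), SPT5 by TRIM28 (11.1) and TRIM28 by OGA (3.82). Those of OGA by SPT5 (28.7) and OGA by O-GlcNAc (21.5) then covered 0, with fewer peaks. An overlap of 50% brought SPT5 by Pol II (5.62) above 0 and turned O-GlcNAc by Pol II negative (−5.61). With summits within 250 bp, SPT5 by OGA (0.446), SPT5 by O-GlcNAc (2.54), OGA by Pol II (8.96) and OGA by O-GlcNAc (16.1) covered 0, and 7 differences turned negative: OGA by SPT5 (−4.46), OGA by TRIM28 (−16.0), Pol II by SPT5 (−2.75), Pol II by TRIM28 (−1.23), Pol II by O-GlcNAc (−0.0625), O-GlcNAc by Pol II (−8.93) and O-GlcNAc by SPT5 (−9.66). Of 10 alternative differences in median fold enrichment, 9 lay within the main interval, and the other was SPT5, 0.678 higher in the MHC at a −log10 q of at least 5. On the −log10 p scale the difference had the other sign for TRIM28 (0.0172), OGA (0.509) and O-GlcNAc (2.97), of which TRIM28 alone had a main interval clear of 0. The cause was not tested. The other start of class I and the alternative differences of shares were chosen after seeing the data. Intervals allow neither for depth nor for variation between cultures.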
